A study of Mus musculus with 9 samples.

Results

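The genes described here carry pyruvate into the citrate (tricarboxylic acid, TCA) cycle, run the cycle, refill it (anaplerosis), and move its intermediates and reducing equivalents between mitochondrion and cytosol. They are 34 genes listed by name, with no measured value in the choice, out of 52408 mouse genes for which transcript values could be summed. Of the 34, 32 passed a filter of at least 1 TPM in at least 3 libraries and were among the 11950 genes tested, and each of these 32 was above 1 TPM in all 9 libraries. The other two were not tested: Me3, a mitochondrial malic enzyme, reached at most 0.18 TPM and Slc25a13, an aspartate-glutamate carrier, at most 0.12 TPM. TPM is a share of the transcripts in a library, corrected for transcript length, so levels below are compared per length.

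Beta cells are known for sending pyruvate into the cycle by way of both pyruvate dehydrogenase, which makes acetyl-CoA, and pyruvate carboxylase, which makes oxaloacetate. The oxaloacetate route lets citrate, malate and isocitrate leave the mitochondrion through carriers and return to pyruvate in the cytosol, a set of loops called pyruvate cycling that supplies NADPH. The malate-aspartate shuttle, built from paired malate dehydrogenases, paired aspartate aminotransferases and 2 kinds of carrier, brings the reducing power of cytosolic NADH into the mitochondrion. These routes are studied in beta cells because they link glucose breakdown to insulin release.

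RNA was measured in MIN6, an insulin-producing cell line from a mouse insulinoma that stands in for beta cells. The 9 libraries fall into 3 groups of 3, cells that received EGCG, the green tea polyphenol epigallocatechin gallate, while overexpressing Nr4a1, cells overexpressing Nr4a1 (an orphan nuclear receptor) with no EGCG, and untransfected control cells. They are called the EGCG, overexpression and control libraries below. Neither the vector nor the dose and time of EGCG is stated in the labels. The labels do not say whether the 3 libraries of a group came from separate cultures, so the spread behind each p-value may be technical. Control cells were not transfected, so transfection and Nr4a1 cannot be told apart in a comparison with control. No library of EGCG without overexpression is among the samples.

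Nr4a1 was at 46.2, 60.9 and 54.5 TPM in the EGCG libraries, 128, 123 and 165 TPM with overexpression alone and 0.63, 0.78 and 0.76 TPM in control. The EGCG libraries thus held less Nr4a1 than the overexpression libraries, and EGCG and this lower level cannot be told apart. All 10 beta cell markers examined were detected. With overexpression against control 8 were higher and 2 lower, Mafa and Chga (limma adjusted p under 0.05). Over all tested genes 38.2% were higher and 21.3% lower. Between the EGCG libraries and control 2 markers were higher and 5 lower, beside 11.1% and 7.1% of all tested genes. The sum of the 10 markers lay between 4865.9 and 5205.6 TPM in the EGCG libraries, between 6716.4 and 7015.2 TPM with overexpression alone and between 4928.6 and 5018.1 TPM in control. Gcg, the glucagon gene and an alpha cell marker, was at 290.0, 324 and 299.6 TPM in the EGCG libraries, 744, 727 and 808 TPM with overexpression alone and 314, 332 and 322 TPM in control. Marker sums of delta cells, fibroblasts, endothelial cells and leukocytes, each taken alone, were below 1 TPM in every library, and of 4 acinar markers only Cela1 reached 1 TPM. Transcripts of the mitochondrial genome took 85525 to 94221 TPM in the EGCG libraries, 73129 to 77869 TPM with overexpression alone and 108426 to 120067 TPM in control. The 1478 chemoreceptor genes, looked at after values were seen, summed to 7.8 to 11.8 TPM in the EGCG libraries, 4.2 to 4.7 TPM with overexpression alone and 50.0 to 107.7 TPM in control, so the control libraries stood apart. The part of these shifts in the results below was not tested, apart from a scaling to nuclear protein-coding genes. Sequencing depth is unknown from TPM, and in bulk RNA fewer cells with a transcript and less of it per cell cannot be told apart.

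Most of the cycle's enzymes were higher with Nr4a1 overexpression than in control and lower again in the EGCG libraries than with overexpression alone, while the citrate carrier Slc25a1 moved the other way. Summed over the 34 genes, TPM lay between 743.1 and 787.7 TPM in the EGCG libraries, between 908.1 and 941.3 TPM with overexpression alone and between 704.5 and 730.2 TPM in control, so the overexpression libraries did not overlap with either of the other groups. With overexpression 22 of the 32 tested genes rose against control, 3 fell (Slc25a1, Me2 and Idh2) and 7 did not pass (limma, Benjamini-Hochberg adjusted p under 0.05 over all tested genes). Over all 11950 genes 59.5% passed, 38.2% higher and 21.3% lower. The median log2 fold change was 0.33 for the 32 genes and 0.10 for all tested genes, and 24 of the 32 lay above that all-gene median. A fold change here is the difference between group means of log2(TPM + 1), a scale that understates changes at low TPM.

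In the EGCG libraries 20 of the 32 genes fell against overexpression alone, 4 rose (Slc25a1, Pc, Me2 and Idh2) and 8 did not pass. The share of all tested genes that passed in this comparison was 53%, with 18.8% higher and 34.1% lower. The median log2 fold change was -0.28 for the 32 genes and -0.09 for all tested genes, and 8 of the 32 lay above the all-gene median. Both comparisons use the same overexpression libraries, with opposite sign, so they are not independent and their values are given side by side. Between the EGCG libraries and control, 5 genes rose (Mdh1, Fh1, Pc, Cs and Idh3g), 2 fell (Sucla2 and Slc25a1) and 25 did not pass, where 18.2% of all tested genes passed, 11.1% higher and 7.1% lower. The split between higher and lower depends on scaling. With median-ratio scaling, overexpression against control gave 18 genes higher and 6 lower, where 29.6% of all tested genes were higher and 29.7% lower. With the same scaling EGCG against overexpression gave 6 genes higher and 15 lower, where 25.6% of all tested genes were higher and 25.8% lower. Scaling to nuclear protein-coding genes moved the all-gene median for EGCG against overexpression to 0.03, against -0.09 as deposited, and gave 6 higher and 14 lower, where 30.2% of all tested genes were higher and 23.8% lower.

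**Figure D1:**
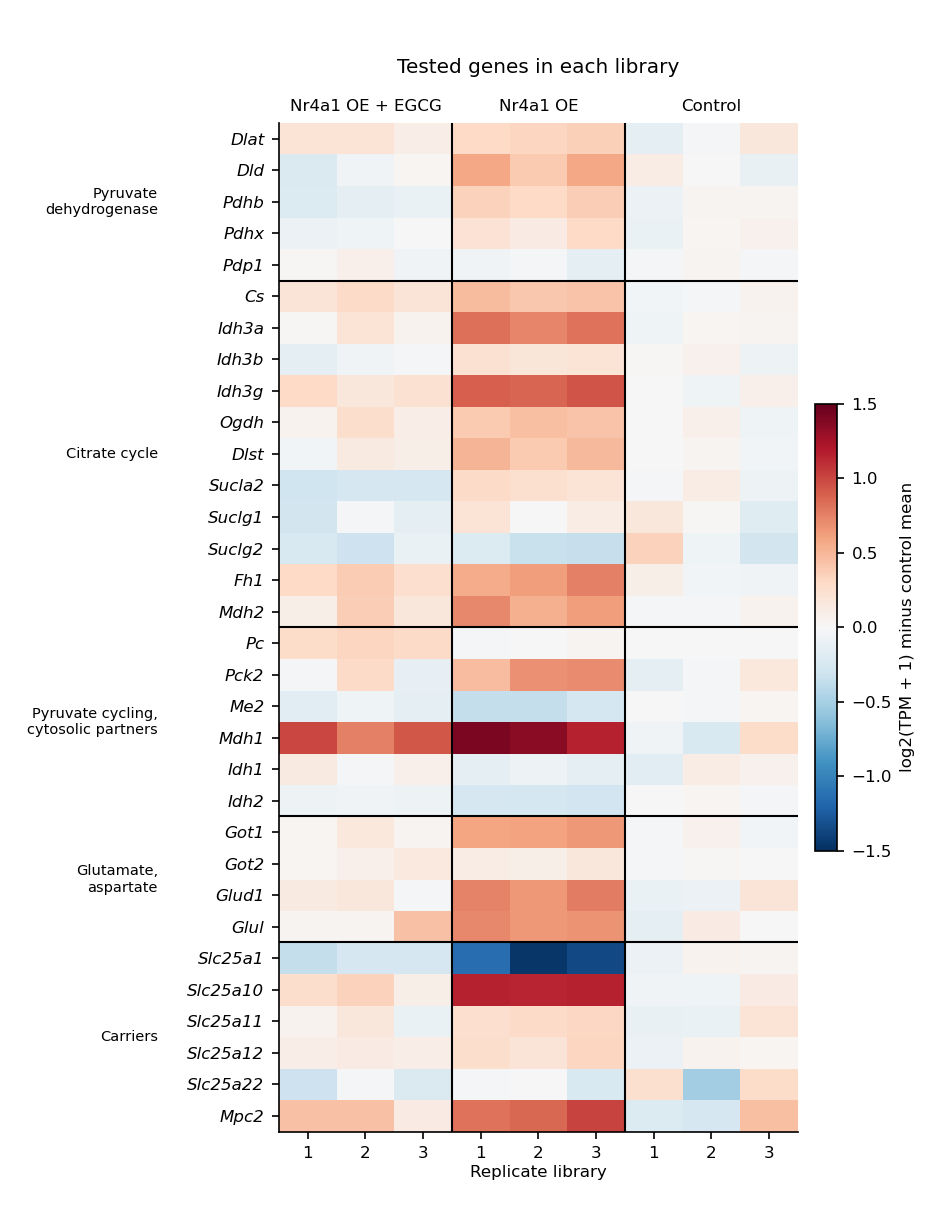
Level of each of the 32 tested genes in each of the 9 libraries, as log2(TPM + 1) minus the mean of the 3 control libraries (red higher, blue lower), in groups of function from top to bottom. The middle block, overexpression alone, is red for most genes and deepest blue for Slc25a1, while the EGCG block on the left is paler for most genes, with Pc redder there than in the middle and Mdh1 the deepest red.

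Of the 5 tested genes of the pyruvate dehydrogenase complex and its phosphatase, 4 rose with overexpression against control, where 38.2% of all tested genes did. In the other comparison 3 fell for EGCG against overexpression, where 34.1% did. Under median-ratio scaling 2 rose and 1 fell with overexpression, beside 29.6% of all tested genes higher and 29.7% lower. With that scaling 1 rose and 2 fell for EGCG against overexpression, beside 25.6% and 25.8%. Pdha1, a subunit of the same complex outside the 34 genes, passed as lower with overexpression than in control (-0.16, limma adjusted p = 0.0415). Dld, the dihydrolipoamide dehydrogenase subunit that this complex shares with others, was at 16.4, 18.3 and 19.6 TPM in the EGCG libraries, 29.2, 25.4 and 29.1 TPM with overexpression alone and 20.7, 19.3 and 17.6 TPM in control. The 3 overexpression libraries were above all others, with a log2 fold change of 0.52 ± 0.087 (SE) against control (limma adjusted p = 0.000817) and of -0.60 ± 0.087 (SE) for EGCG against overexpression (limma adjusted p = 0.000472). Pdhb, the beta subunit of the decarboxylating enzyme, was at 31.3, 32.7 and 33.9 TPM in the EGCG libraries, 46.3, 44.8 and 47.1 TPM with overexpression alone and 34.3, 37.5 and 37.5 TPM in control. Here too the overexpression libraries did not overlap with the other groups, and the log2 fold changes were 0.33 ± 0.0544 (SE) with overexpression against control (limma adjusted p = 0.000689) and -0.49 ± 0.0544 (SE) for EGCG against overexpression (limma adjusted p = 0.000102).

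Dlat, the acetyl-transferring core subunit, was at 16.5, 16.6 and 15.3 TPM in the EGCG libraries, 17.8, 18.1 and 18.5 TPM with overexpression alone and 12.8, 14 and 16.1 TPM in control. Its groups did not overlap between overexpression and control, where the log2 fold change was 0.33 ± 0.0758 (SE) (limma adjusted p = 0.00498). With transcripts of protein-coding biotype alone that difference was 0.006 (limma adjusted p = 0.936), and the call also missed the threshold under median-ratio scaling (0.215) and quantile normalization (0.179). Between EGCG and overexpression Dlat did not pass (-0.16 ± 0.0758 (SE), limma adjusted p = 0.108). It passed there as lower without control replicate 3 (limma adjusted p = 0.0302) and with only the 6 libraries of the comparison (limma adjusted p = 0.028). It also passed with protein-coding transcripts (-0.198, limma adjusted p = 0.0089) and with APPRIS principal transcripts, the annotated main coding forms (-0.198, limma adjusted p = 0.00713). Against control the EGCG libraries passed as higher without control replicate 3 (0.252, limma adjusted p = 0.0165) and as lower with protein-coding transcripts (-0.193, limma adjusted p = 0.0284).

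Pdhx, which tethers Dld to the complex, was at 7.5, 7.7 and 8.09 TPM in the EGCG libraries, 9.56, 8.86 and 10.1 TPM with overexpression alone and 7.48, 8.26 and 8.49 TPM in control, with log2 fold changes of 0.21 ± 0.0658 (SE) for overexpression against control (limma adjusted p = 0.0198) and -0.26 ± 0.0658 (SE) for EGCG against overexpression (limma adjusted p = 0.00858). The rise missed the threshold without control replicate 1 (0.165), overexpression replicate 1 (0.209) or overexpression replicate 3 (0.171), and also under median-ratio scaling (0.106), quantile normalization (0.088) and scaling to nuclear protein-coding genes (0.132). The fall in the EGCG libraries missed it under the same scalings, at -0.169, -0.169 and -0.125. Pdp1, a phosphatase that switches the complex on, was at 5.67, 5.95 and 5.34 TPM in the EGCG libraries, 5.34, 5.54 and 4.97 TPM with overexpression alone and 5.52, 5.79 and 5.48 TPM in control. Its groups overlapped, and it passed in none of the 3 comparisons as fitted. Under median-ratio scaling Pdp1 passed as lower with overexpression than in control (-0.171, limma adjusted p = 0.0343) and as higher for EGCG against overexpression (0.17, limma adjusted p = 0.04). Nuclear scaling also gave the higher level for EGCG (0.212, limma adjusted p = 0.0148).

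Of the 11 tested genes of the cycle, 9 were higher with overexpression than in control and none lower. Over all tested genes 38.2% were higher and 21.3% lower. In the EGCG libraries 9 were lower than with overexpression and none higher, beside 34.1% and 18.8% of all tested genes. Under median-ratio scaling 8 rose and 1 fell with overexpression, beside 29.6% of all tested genes higher and 29.7% lower. With that scaling 8 fell for EGCG against overexpression, beside 25.8%. Quantile normalization gave 7 higher and 1 lower with overexpression, beside 29.8% and 28.4% of all tested genes. With it 6 fell for EGCG against overexpression, beside 25.9%. Of succinate dehydrogenase, outside the 34 genes, Sdha fell with overexpression against control while Sdhb, Sdhc and Sdhd rose. Summed TPM of these 11 genes lay between 308.7 and 340.2 TPM in the EGCG libraries, between 408.9 and 430.6 TPM with overexpression alone and between 290.3 and 304.0 TPM in control. Idh3g (ENSMUSG00000002010), a regulatory subunit of the NAD-dependent isocitrate dehydrogenase, was at 23.1, 21.1 and 22 TPM in the EGCG libraries, 35.4, 34.9 and 36.8 TPM with overexpression alone and 18.5, 17.8 and 19.7 TPM in control. Its overexpression libraries were clear of all others, with a log2 fold change of 0.90 ± 0.0554 (SE) against control (limma adjusted p = 2.87e-06) and of -0.67 ± 0.0554 (SE) for EGCG against overexpression (limma adjusted p = 1.92e-05). Idh3a (ENSMUSG00000032279), the catalytic subunit of the same enzyme, was at 26.1, 29.8 and 26.7 TPM in the EGCG libraries, 46.3, 43.4 and 46 TPM with overexpression alone and 24.5, 26.2 and 26.4 TPM in control. The log2 fold changes were 0.79 ± 0.062 (SE) with overexpression against control (limma adjusted p = 9.83e-06) and -0.70 ± 0.062 (SE) for EGCG against overexpression (limma adjusted p = 2.93e-05), and the EGCG and control libraries overlapped.

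The rise of Idh3a was spread over transcripts of several kinds. Its retained-intron transcript Idh3a-203 made up 50.5% ± 2.16 in the EGCG libraries, 47.2% ± 3.78 with overexpression alone and 50.4% ± 4.19 in control (SD, n = 3 each). With principal transcripts alone the rise was 0.382 and did not pass (limma adjusted p = 0.548), and the principal Idh3a-201 was listed at 0 TPM in all 3 EGCG libraries. Idh3b, the third kind of subunit, moved least: it lay between 21.1 and 23 TPM in the EGCG libraries, 26.8 and 27.7 TPM with overexpression alone and 22.1 and 24.6 TPM in control. Idh3b shares exonic sequence on the opposite strand with Nop56, itself at 31.1 to 53.4 TPM. Its log2 fold changes were 0.21 ± 0.0551 (SE) for overexpression against control (limma adjusted p = 0.0102) and -0.28 ± 0.0551 (SE) for EGCG against overexpression (limma adjusted p = 0.0024). Its rise with overexpression missed the threshold under median-ratio scaling (0.091), quantile normalization (0.065) and scaling to nuclear protein-coding genes (0.120).

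Fh1, the fumarate hydratase, was at 60.0, 63.6 and 57.9 TPM in the EGCG libraries, 72.3, 75.5 and 82.5 TPM with overexpression alone and 51.9, 47.3 and 46.8 TPM in control. Mdh2, the mitochondrial malate dehydrogenase, was at 62.6, 76.6 and 66.6 TPM in the EGCG libraries, 97.7, 85.8 and 91.3 TPM with overexpression alone and 57.9, 57.8 and 61.3 TPM in control. In both genes the overexpression libraries were the highest 3, with log2 fold changes against control of 0.65 ± 0.0676 (SE) for Fh1 (limma adjusted p = 4.99e-05) and 0.63 ± 0.0799 (SE) for Mdh2 (limma adjusted p = 0.000163). For EGCG against overexpression they were -0.34 ± 0.0676 (SE) for Fh1 (limma adjusted p = 0.00274) and -0.42 ± 0.0799 (SE) for Mdh2 (limma adjusted p = 0.00219). The fall of Fh1 missed the threshold under quantile normalization (-0.127).

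Cs, the citrate synthase that opens the cycle, was at 36.2, 38.8 and 36.2 TPM in the EGCG libraries, 44.3, 42 and 42.9 TPM with overexpression alone and 30.7, 31.3 and 32.9 TPM in control. All 3 groups were apart, in the order overexpression, EGCG, control. Overexpression against control gave 0.43 ± 0.0508 (SE) (limma adjusted p = 9.74e-05), and EGCG against overexpression -0.21 ± 0.0508 (SE) (limma adjusted p = 0.0068). The EGCG change of Cs missed the threshold under median-ratio scaling (-0.111), quantile normalization (-0.024) and scaling to nuclear protein-coding genes (-0.063).

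Ogdh and Dlst, subunits of the 2-oxoglutarate dehydrogenase complex, rose by 0.42 and 0.46 on the log2 scale with overexpression against control, and fell by 0.28 and 0.40 for EGCG against overexpression. The fall of Ogdh missed the threshold under quantile normalization (-0.135) and scaling to nuclear protein-coding genes (-0.138). The succinyl-CoA synthetase makes ATP or GTP according to its beta subunit, and of its 3 subunits Sucla2 alone passed as fitted. Sucla2, the ADP-using beta subunit, was at 12.3, 12.7 and 12.7 TPM in the EGCG libraries, 18.9, 18.2 and 17.8 TPM with overexpression alone and 15, 16.6 and 14.5 TPM in control. It rose with overexpression against control by 0.24 ± 0.057 (SE) (limma adjusted p = 0.00538), though by 0.094 under quantile normalization, which missed the threshold, and fell for EGCG against overexpression by 0.51 ± 0.057 (SE) (limma adjusted p = 0.000103).

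Suclg2, the GDP-using beta subunit, lay between 16.5 and 19.2 TPM in the EGCG libraries, 16 and 17.9 TPM with overexpression alone and 16.9 and 26.6 TPM in control. It passed in no comparison as fitted, and its control replicate 1, at 26.6 TPM, was the highest of the 9. Without control replicate 3, and under median-ratio scaling (-0.408), quantile normalization (-0.438), scaling to nuclear protein-coding genes (-0.379) or principal transcripts (-0.484), Suclg2 passed as lower with overexpression than in control, the first with -0.434 (limma adjusted p = 0.013). Suclg1, the alpha subunit common to both forms, lay between 13.3 and 16 TPM in the EGCG libraries, 16.3 and 18.8 TPM with overexpression alone and 14.2 and 18.3 TPM in control, and passed in no comparison as fitted. For EGCG against overexpression Suclg1 passed as lower with only the 6 libraries of the comparison (limma adjusted p = 0.0319) and with protein-coding (-0.252) or principal transcripts (-0.347). It also passed without control replicate 1 (limma adjusted p = 0.0398), control replicate 3 (limma adjusted p = 0.0302) or EGCG replicate 2 (-0.310, limma adjusted p = 0.0409).

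**Figure D2:**
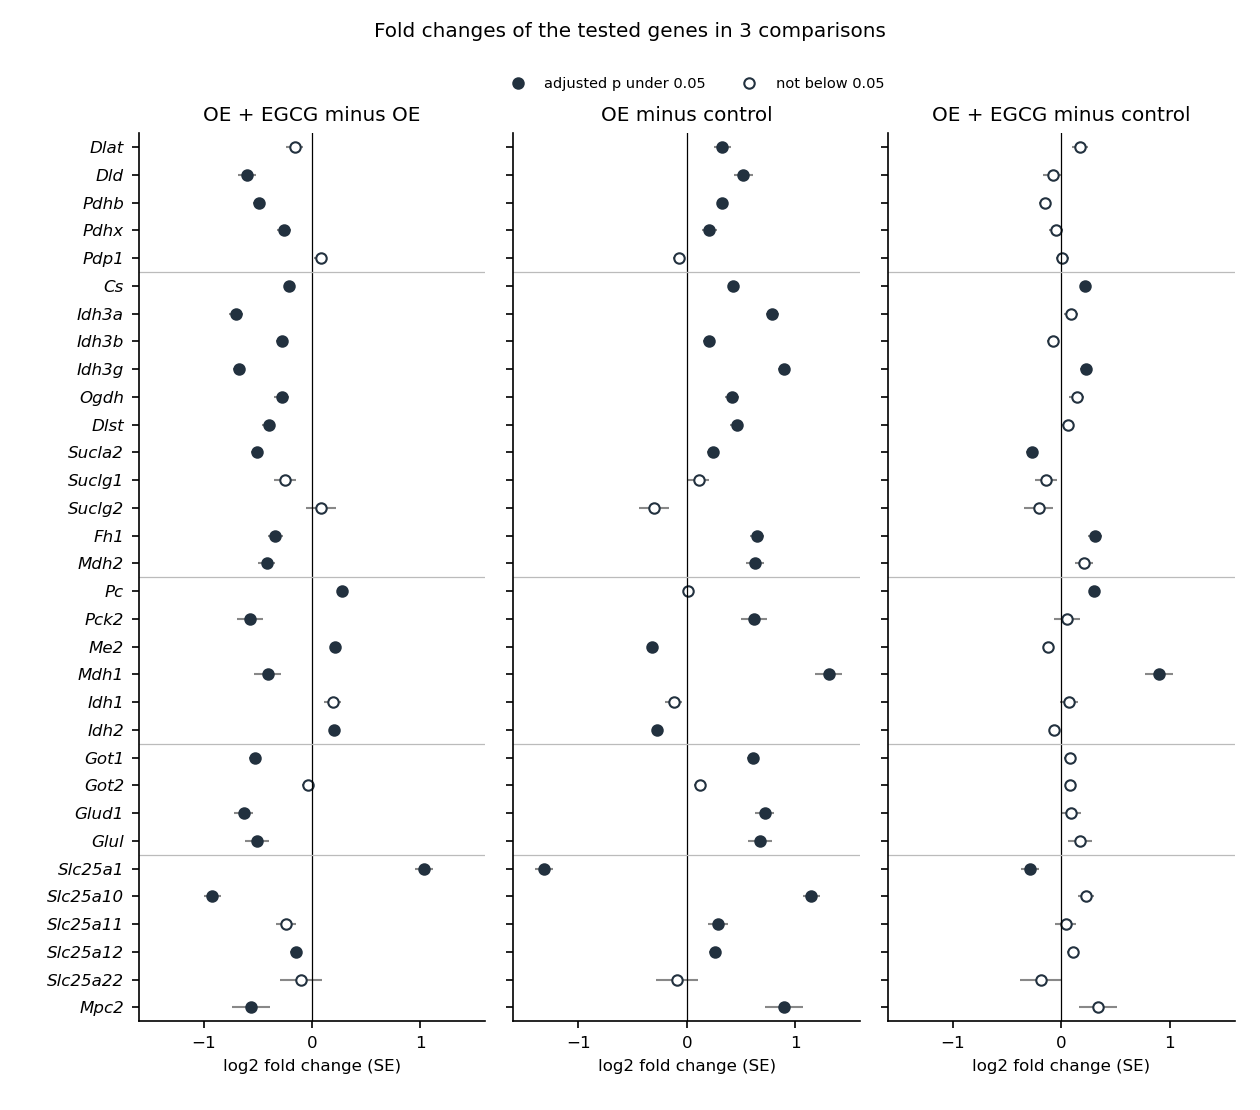
Log2 fold change of each tested gene on log2(TPM + 1) in 3 comparisons, with limma's standard error as the bar; filled points passed an adjusted p of 0.05 and open points did not. For EGCG against overexpression (left) most filled points lie left of zero, for overexpression against control (middle) most lie right, and Slc25a1 is on the opposite side in each, at 1.03 and -1.32.

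Pyruvate cycling showed no common direction as fitted. For overexpression against control 2 of its 6 tested genes rose, 2 fell and 2 did not pass. Over all tested genes 38.2% were higher and 21.3% lower. For EGCG against overexpression 3 rose, 2 fell and 1 did not pass, beside 18.8% of all tested genes higher and 34.1% lower. With principal transcripts alone Mdh1 was below the filter, leaving 5 tested genes. Of these 0 rose and 2 fell with overexpression against control, where 44.9% of all tested genes were higher. For EGCG against overexpression 4 of the 5 rose and 1 fell, beside 17.3% and 41.4%. Pc (annotated as Pcx), the pyruvate carboxylase that refills oxaloacetate, was at 15.7, 16.3 and 15.8 TPM in the EGCG libraries, 12.7, 12.9 and 13.2 TPM with overexpression alone and 12.9, 12.8 and 12.7 TPM in control. The EGCG libraries were above all others and the overexpression libraries overlapped with control. The log2 fold changes were 0.28 ± 0.0429 (SE) for EGCG against overexpression (limma adjusted p = 0.000564), 0.30 ± 0.0429 (SE) for EGCG against control (limma adjusted p = 0.00484) and 0.01 ± 0.0429 (SE) for overexpression against control (limma adjusted p = 0.852). Under quantile normalization overexpression against control gave -0.127 for Pc and passed (limma adjusted p = 0.0375).

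Pck2, the mitochondrial enzyme that turns oxaloacetate into phosphoenolpyruvate, was at 19.4, 24.3 and 18 TPM in the EGCG libraries, 27.6, 32.3 and 32.7 TPM with overexpression alone and 17.7, 19.4 and 22 TPM in control. The overexpression libraries were the highest 3, with a log2 fold change of 0.62 ± 0.119 (SE) against control (limma adjusted p = 0.00175) and -0.57 ± 0.119 (SE) for EGCG against overexpression (limma adjusted p = 0.00344). The principal transcript alone went the other way for overexpression against control, at -0.174 (limma adjusted p = 0.0978), and retained-intron transcripts made up part of the sum, such as Pck2-210 with 18.3% ± 2.4 in the EGCG libraries, 19.4% ± 1.21 with overexpression alone and 15.6% ± 3.18 in control (SD, n = 3 each).

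Me2, the mitochondrial NAD-dependent malic enzyme, and Idh2, the mitochondrial NADP-dependent isocitrate dehydrogenase, were lowest in the overexpression libraries. Me2 was at 20.4, 21.6 and 20.7 TPM in the EGCG libraries, 17.6, 17.6 and 18.7 TPM with overexpression alone and 22.7, 22.4 and 23.1 TPM in control. Idh2 was at 70.7, 71.8 and 70.7 TPM in the EGCG libraries, 62.6, 62 and 61.1 TPM with overexpression alone and 74.1, 75.9 and 73.9 TPM in control. For both genes all 3 groups were apart, with overexpression lowest and control highest. For Me2 the log2 fold changes were -0.32 ± 0.048 (SE) with overexpression against control (limma adjusted p = 0.000386) and 0.21 ± 0.048 (SE) for EGCG against overexpression (limma adjusted p = 0.00571), and for Idh2 they were -0.27 ± 0.0414 (SE) (limma adjusted p = 0.000517) and 0.20 ± 0.0414 (SE) (limma adjusted p = 0.00359).

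Idh1, the cytosolic NADP-dependent isocitrate dehydrogenase, was at 7.33, 6.46 and 7.0 TPM in the EGCG libraries, 5.81, 6.17 and 5.84 TPM with overexpression alone and 5.72, 7.17 and 6.88 TPM in control. It passed in no comparison as fitted. It passed as lower with overexpression than in control without control replicate 1 (-0.210, limma adjusted p = 0.0262) and under median-ratio scaling (-0.227). For EGCG against overexpression Idh1 passed as higher without control replicate 1 (limma adjusted p = 0.0243), with only the 6 libraries of the comparison (limma adjusted p = 0.0278), with principal transcripts (0.196), and under median-ratio scaling (0.281), quantile normalization (0.253) and scaling to nuclear protein-coding genes (0.324).

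Mdh1 (ENSMUSG00000020321), the cytosolic malate dehydrogenase, had the largest rise of the 32 genes with overexpression. It was at 41.9, 35.4 and 40.0 TPM in the EGCG libraries, 56.1, 54.1 and 46.8 TPM with overexpression alone and 19.8, 17.3 and 25.1 TPM in control. All 3 groups were apart, and the log2 fold change of 1.31 ± 0.127 (SE) for overexpression against control (limma adjusted p = 3.32e-05) stood beside -0.41 ± 0.127 (SE) for EGCG against overexpression (limma adjusted p = 0.0228). The EGCG libraries stood above control by 0.90 ± 0.127 (SE) (limma adjusted p = 0.00468). The EGCG change missed the threshold without overexpression replicate 1 (-0.359), overexpression replicate 2 (-0.384) or EGCG replicate 2 (-0.342), and under median-ratio scaling (-0.308), quantile normalization (-0.199) and scaling to nuclear protein-coding genes (-0.260). Mdh1 shares exonic sequence on the opposite strand with Wdpcp, itself at 5.89 to 12.7 TPM, and the labels do not say whether reads were counted by strand.

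**Figure D3:**
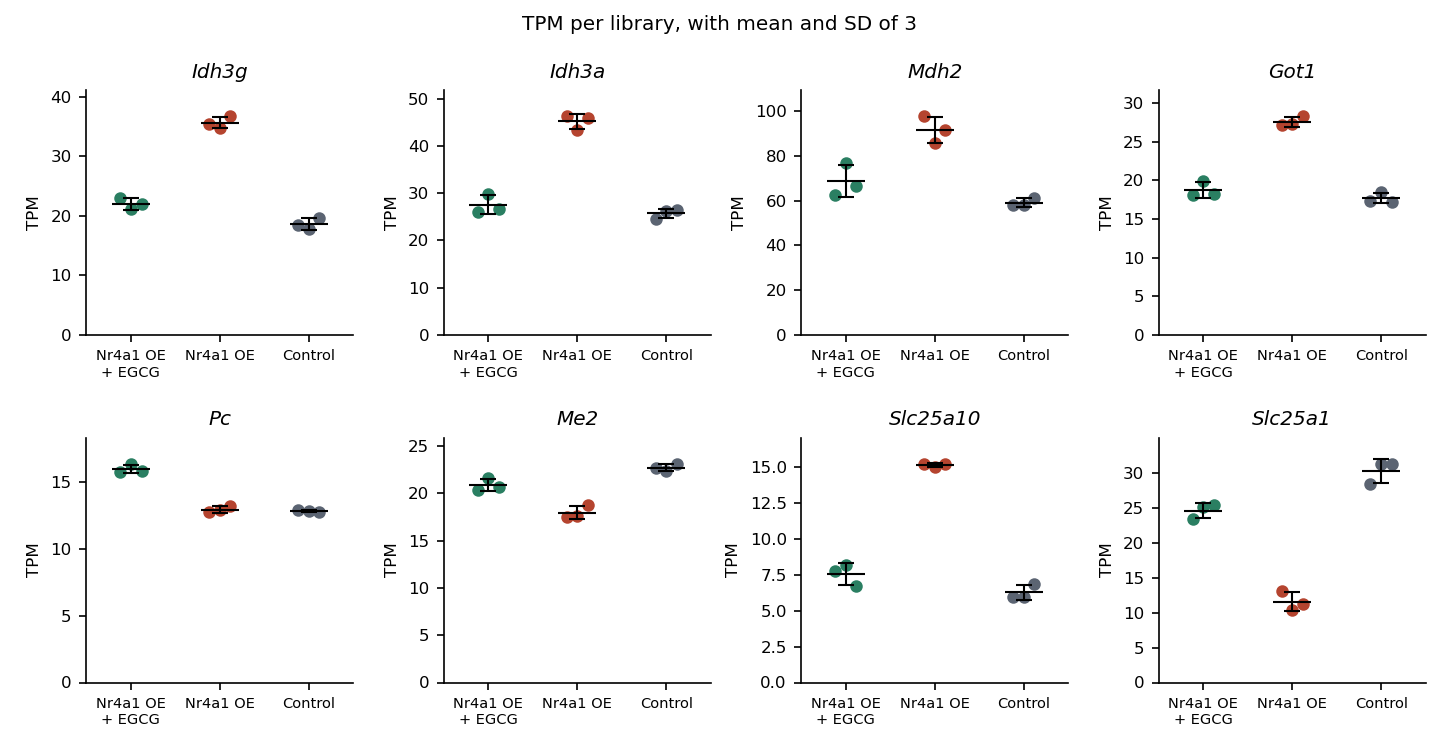
TPM of 8 genes in each library (points), with the mean and SD of 3 libraries (bars), EGCG on the left, overexpression alone in the middle and control on the right. Idh3g, Idh3a, Mdh2, Got1 and Slc25a10 peak in the middle group, Me2 and Slc25a1 are lowest there, and Pc is highest with EGCG.

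Among the 4 glutamate and aspartate enzymes, 3 rose with overexpression against control, where 38.2% of all tested genes did. For EGCG against overexpression 3 fell, where 34.1% did, and Got2 passed in neither comparison. Got1, the cytosolic aspartate aminotransferase, was at 18.1, 19.9 and 18.2 TPM in the EGCG libraries, 27.1, 27.3 and 28.3 TPM with overexpression alone and 17.4, 18.5 and 17.2 TPM in control. Got2, its mitochondrial partner in the malate-aspartate shuttle, was at 45.3, 47 and 49 TPM in the EGCG libraries, 48, 47 and 49.9 TPM with overexpression alone and 43.4, 44.9 and 44.6 TPM in control. For Got1 overexpression was clear of the other groups, with 0.61 ± 0.0537 (SE) against control (limma adjusted p = 1.84e-05) and -0.53 ± 0.0537 (SE) for EGCG against overexpression (limma adjusted p = 5.68e-05). For Got2 the log2 fold changes were 0.12 ± 0.0488 (SE) with overexpression against control (limma adjusted p = 0.0569) and -0.04 ± 0.0488 (SE) for EGCG against overexpression (limma adjusted p = 0.555), and their direction depended on scaling: quantile normalization gave -0.061 and 0.168, of which the value for EGCG against overexpression passed (limma adjusted p = 0.0109).

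Glud1, the glutamate dehydrogenase that feeds 2-oxoglutarate into the cycle, was at 10.3, 10.6 and 9.1 TPM in the EGCG libraries, 16.2, 15.1 and 16.5 TPM with overexpression alone and 8.62, 8.67 and 10.8 TPM in control. Glul, the glutamine synthetase, was at 8.07, 8.07 and 11 TPM in the EGCG libraries, 13.6, 12.9 and 13.1 TPM with overexpression alone and 7.08, 8.6 and 7.91 TPM in control. In both genes the overexpression libraries were the highest 3, and the EGCG and control libraries overlapped. Overexpression against control gave 0.72 ± 0.0889 (SE) for Glud1 (limma adjusted p = 0.000136) and 0.68 ± 0.11 (SE) for Glul (limma adjusted p = 0.000623), and EGCG against overexpression gave -0.63 ± 0.0889 (SE) for Glud1 (limma adjusted p = 0.000406) and -0.51 ± 0.11 (SE) for Glul (limma adjusted p = 0.00384).

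The carriers held both the deepest fall of the 32 genes with overexpression, in Slc25a1, and the next largest rise after Mdh1, in Slc25a10. Slc25a1 (ENSMUSG00000003528), which exports citrate from the mitochondrion, was at 23.3, 25.1 and 25.3 TPM in the EGCG libraries, 13.1, 10.3 and 11.2 TPM with overexpression alone and 28.3, 31.2 and 31.1 TPM in control. All 3 groups were apart, with overexpression the lowest. By group means it held 24.6 ± 1.1 TPM in the EGCG libraries, 11.6 ± 1.41 TPM with overexpression alone and 30.2 ± 1.67 TPM in control (SD, n = 3 each). The log2 fold changes were -1.32 ± 0.0824 (SE) for overexpression against control (limma adjusted p = 3.15e-06) and 1.03 ± 0.0824 (SE) for EGCG against overexpression (limma adjusted p = 1.64e-05).

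Slc25a10 (ENSMUSG00000025792), the dicarboxylate carrier that exchanges malate or succinate for phosphate, moved the opposite way by a like amount. It was at 7.73, 8.19 and 6.73 TPM in the EGCG libraries, 15.2, 15 and 15.2 TPM with overexpression alone and 5.97, 5.94 and 6.87 TPM in control. The overexpression libraries were clear of all others, and the EGCG and control libraries overlapped. The log2 fold changes were 1.15 ± 0.0756 (SE) for overexpression against control (limma adjusted p = 3.96e-06) and -0.92 ± 0.0756 (SE) for EGCG against overexpression (limma adjusted p = 1.91e-05). EGCG against control gave 0.23 ± 0.0756 (SE), which did not pass (limma adjusted p = 0.0607) but did without control replicate 3 (0.294, limma adjusted p = 0.022) or EGCG replicate 3 (0.306, limma adjusted p = 0.0285), with the filter of 5 TPM (limma adjusted p = 0.0489) and with nuclear protein-coding genes (0.292, limma adjusted p = 0.0212).

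Mpc2, a subunit of the carrier that brings pyruvate into the mitochondrion, was at 25.4, 25.5 and 20.2 TPM in the EGCG libraries, 33.1, 34.3 and 38.2 TPM with overexpression alone and 15.9, 15.3 and 25.6 TPM in control. Overexpression was highest, and control replicate 3 stood above the other two control libraries. Overexpression against control gave 0.90 ± 0.176 (SE) (limma adjusted p = 0.002) and EGCG against overexpression -0.56 ± 0.176 (SE) (limma adjusted p = 0.0246). The call for EGCG against overexpression was lost without overexpression replicate 2 (-0.574), overexpression replicate 3 (-0.498) or EGCG replicate 3 (-0.451), and under median-ratio scaling (-0.456), quantile normalization (-0.381) and scaling to nuclear protein-coding genes (-0.409). Without control replicate 3 the EGCG libraries passed as higher than control for Mpc2 (0.565, limma adjusted p = 0.00767).

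The carriers of the malate-aspartate shuttle changed less. Slc25a12, the aspartate-glutamate carrier found in these cells, was at 17.1, 17.3 and 17.1 TPM in the EGCG libraries, 19.2, 18.3 and 20.1 TPM with overexpression alone and 14.9, 16.6 and 16.1 TPM in control. All 3 groups were apart, with 0.26 ± 0.0549 (SE) for overexpression against control (limma adjusted p = 0.00305) and -0.15 ± 0.0549 (SE) for EGCG against overexpression (limma adjusted p = 0.0418). Most of this sum was the transcript Slc25a12-207, of a biotype marked for nonsense-mediated decay, with 63.8% ± 4.71 in the EGCG libraries, 73.3% ± 2.85 with overexpression alone and 61% ± 3.63 in control (SD, n = 3 each). With protein-coding transcripts alone overexpression against control gave 0.003 for Slc25a12 (limma adjusted p = 0.973). The call for EGCG against overexpression was lost without overexpression replicate 1 (-0.150) or 3 (-0.121) and without EGCG replicate 1 (-0.150), 2 (-0.158) or 3 (-0.149), and quantile normalization turned its sign (0.003).

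Slc25a11, which exchanges 2-oxoglutarate for malate, was at 23.4, 25.3 and 20.9 TPM in the EGCG libraries, 27, 27.6 and 28.2 TPM with overexpression alone and 20.7, 21 and 26.1 TPM in control. Overexpression was highest, and 0.29 ± 0.0951 (SE) against control passed narrowly (limma adjusted p = 0.0271). That call was lost without control replicate 1 (0.229) or 2 (0.239) and without overexpression replicate 1 (0.301), 2 (0.285) or 3 (0.272), and under median-ratio scaling (0.171), quantile normalization (0.143) and scaling to nuclear protein-coding genes (0.200). EGCG against overexpression gave -0.24 ± 0.0951 (SE) and did not pass (limma adjusted p = 0.055). It passed without control replicate 3 (limma adjusted p = 0.0132) or EGCG replicate 2 (-0.307, limma adjusted p = 0.0355), and with only the 6 libraries of the comparison (limma adjusted p = 0.0206). It also passed with protein-coding (-0.274, limma adjusted p = 0.028) or principal transcripts (-0.277, limma adjusted p = 0.0319). Slc25a11 shares exonic sequence on the opposite strand with Rnf167, itself at 13.8 to 16.8 TPM.

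Slc25a22, a glutamate carrier, had the lowest level of the tested genes, between 2.73 and 3.52 TPM in the EGCG libraries, 2.93 and 3.61 TPM with overexpression alone and 2.23 and 4.58 TPM in control. It passed in no comparison as fitted. Control replicate 2 was the lowest library and the other two control libraries the highest, and without control replicate 2 Slc25a22 passed as lower with overexpression than in control (-0.347, limma adjusted p = 0.0207) and as lower with EGCG than in control (-0.446, limma adjusted p = 0.0398). Without control replicate 1 (0.033) or control replicate 3 (0.047) its sign for overexpression against control turned.

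Promoter sequences from RefSeq (build GRCm38.p6) were searched for AAAGGTCA, the element known to bind Nr4a1 as a single molecule, and for ACGTG, the core of hypoxia response elements, on both strands over 250 bases before and 50 bases after the annotated start. Of the 34 genes, 31 had an entry. AAAGGTCA was in 0 of these 31, beside 1.70% of 27025 genes, and ACGTG was in 7 of the 31 (22.6%), beside 21.8% of all genes. The 7 were Idh3g, Mdh1, Ogdh, Pc, Pdhb, Slc25a1 and Slc25a13. The 250 bases before the start are shown for Idh3g and Slc25a10, which rose with overexpression, and for Slc25a1, which fell, so that the windows of genes that moved in opposite directions can be read beside each other. They lie at chrX:73786898-73787147 (minus strand), chr11:120491587-120491836 (plus strand) and chr16:17928220-17928469 (minus strand), and capitals mark ACGTG or its reverse complement CACGT, which in Slc25a1 overlap as CACGTG. The match lies 198 bases before the start of Idh3g, and the overlapping pair begins 239 bases before that of Slc25a1.
Idh3g: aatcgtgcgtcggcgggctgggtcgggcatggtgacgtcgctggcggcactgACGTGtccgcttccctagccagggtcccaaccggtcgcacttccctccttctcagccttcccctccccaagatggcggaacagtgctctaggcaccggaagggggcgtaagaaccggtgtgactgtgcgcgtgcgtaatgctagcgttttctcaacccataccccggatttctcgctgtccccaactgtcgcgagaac
Slc25a10: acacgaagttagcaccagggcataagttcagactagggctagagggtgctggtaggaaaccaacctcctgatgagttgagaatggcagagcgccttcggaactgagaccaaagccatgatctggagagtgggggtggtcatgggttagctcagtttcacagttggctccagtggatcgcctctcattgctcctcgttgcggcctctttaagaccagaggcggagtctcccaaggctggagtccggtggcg
Slc25a1: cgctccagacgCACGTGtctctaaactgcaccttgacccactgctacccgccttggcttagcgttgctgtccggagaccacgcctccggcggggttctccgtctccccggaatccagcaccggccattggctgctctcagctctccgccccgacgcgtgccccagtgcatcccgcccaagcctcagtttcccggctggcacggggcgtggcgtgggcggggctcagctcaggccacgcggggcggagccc
A match is a description of the letters and not a binding site, and a window without a match says only that these letters are not in it.

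Ratios of paired genes within a library do not depend on that library's TPM total. With 3 libraries against 3, the exact two-sided permutation test cannot go below 0.1, so none of these ratios can pass 0.05. Got1/Got2, cytosolic over mitochondrial aspartate aminotransferase, was 0.40, 0.424 and 0.371 in the EGCG libraries, 0.565, 0.58 and 0.566 with overexpression alone and 0.40, 0.412 and 0.386 in control. Overexpression was above both other groups (exact permutation p = 0.1 against control and for EGCG against overexpression), and EGCG overlapped with control (exact permutation p = 1.0). Mdh1/Mdh2, cytosolic over mitochondrial malate dehydrogenase, was 0.67, 0.462 and 0.60 in the EGCG libraries, 0.574, 0.63 and 0.512 with overexpression alone and 0.342, 0.30 and 0.409 in control. Here both the EGCG and the overexpression libraries were above control (exact permutation p = 0.1 each) and overlapped with each other. The Mdh1 side of this ratio is a gene sum carried by short transcript models, described below. Its full-length principal transcript averaged under 1 TPM in each group, so the ratio does not describe that form.

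Suclg2/Sucla2, the GDP-using over the ADP-using subunit, was 1.43, 1.3 and 1.52 in the EGCG libraries, 0.947, 0.889 and 0.901 with overexpression alone and 1.77, 1.19 and 1.17 in control. It was below 1 in each overexpression library and above 1 in all the others (exact permutation p = 0.1 for EGCG against overexpression and for overexpression against control). Pc/Pdhb, which sets the carboxylase against a subunit of the dehydrogenase that competes for pyruvate, was 0.502, 0.499 and 0.466 in the EGCG libraries, 0.274, 0.287 and 0.28 with overexpression alone and 0.377, 0.341 and 0.34 in control. All 3 groups were apart, with EGCG highest and overexpression lowest (exact permutation p = 0.1 in each of the 3 comparisons). Between overexpression and control the difference lay in Pdhb, since Pc alone overlapped there (log2 fold change 0.01). Pdha1, the alpha subunit of the same enzyme, fell with overexpression against control (-0.16, limma adjusted p = 0.0415). No ratio was formed with Pdha1, so the order of the groups holds for Pdhb as the denominator only. Idh1/Idh2 and Glul/Glud1 overlapped between groups in all comparisons, and no ratio was formed with Me3 or Slc25a13 because they were under 1 TPM.

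**Figure D4:**
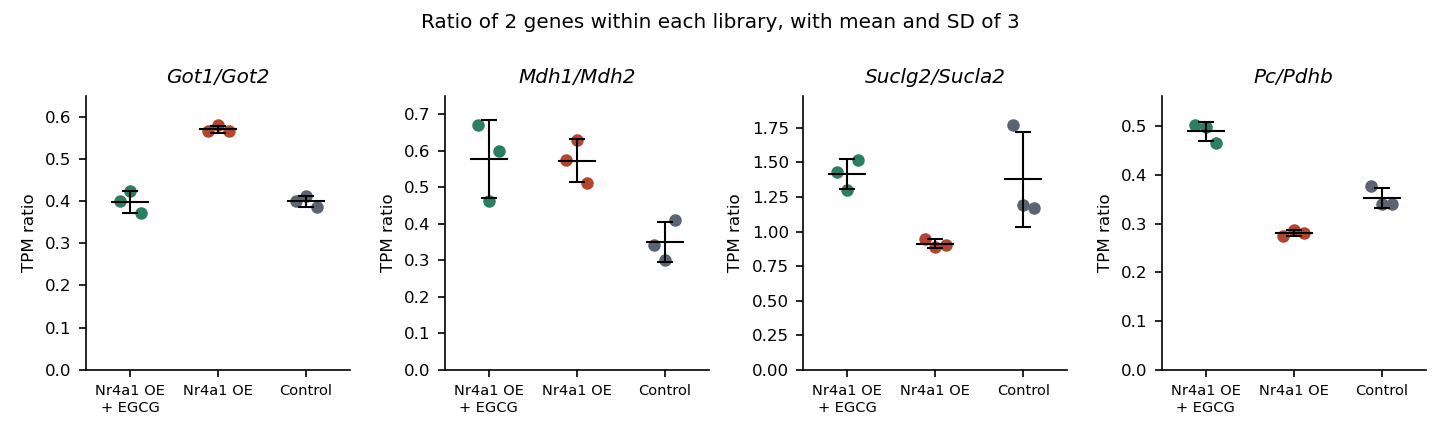
Ratio of the TPM of 2 genes within each library (points), with the mean and SD of 3 libraries (bars), EGCG on the left, overexpression alone in the middle and control on the right. Got1/Got2 is highest in the middle group and Suclg2/Sucla2 and Pc/Pdhb lowest there, while Mdh1/Mdh2 is lowest in control. The Mdh1 sum is carried by short transcript models.

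Because the deposited values are per transcript, the make-up of each gene sum could be read, though the authors' estimation shares reads between transcripts and TPM weights short models upward. In Mdh1 the sum was carried by short models. The full-length principal transcript Mdh1-201, of 2122 bases, averaged 0.657 ± 0.10 TPM in the EGCG libraries, 0.833 ± 0.263 TPM with overexpression alone and 0.577 ± 0.388 TPM in control (SD, n = 3 each). Mdh1-202, a coding model of 549 bases with an incomplete 3′ end, was at 35.1, 29 and 30.1 TPM in the EGCG libraries, 45.4, 39.1 and 37.9 TPM with overexpression alone and 4.38, 7.22 and 15.8 TPM in control. It made up 80.4% ± 4.44 in the EGCG libraries, 78.1% ± 5.09 with overexpression alone and 42.4% ± 20.5 in control (SD, n = 3 each), so the rise of the Mdh1 sum lay in this model. Mdh1-203, a noncoding model of 644 bases, made up 15.8% ± 4.34 in the EGCG libraries, 17.9% ± 4.6 with overexpression alone and 52.4% ± 22.1 in control (SD, n = 3 each), and averaged 9.4 ± 2.77 TPM with overexpression alone and 10.5 ± 3.8 TPM in control.

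In Mpc2 both the principal Mpc2-201 and the noncoding Mpc2-203, of 493 bases, were higher with overexpression than in control. Most of the rise of the sum lay in Mpc2-203. Mpc2-201 was at 9.14, 11.2 and 7.7 TPM in the EGCG libraries, 13.5, 15.7 and 14.5 TPM with overexpression alone and 10.5, 9.39 and 12.5 TPM in control. Mpc2-203 was at 15.2, 13.2 and 11.6 TPM in the EGCG libraries, 18.7, 17.7 and 22.8 TPM with overexpression alone and 4.42, 4.7 and 12 TPM in control, and made up 56.5% ± 4.03 in the EGCG libraries, 55.9% ± 4.09 with overexpression alone and 35.1% ± 10.3 in control (SD, n = 3 each). Control replicate 3, at 12 TPM for Mpc2-203, was nearer to the EGCG libraries than the other control libraries were.

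Subunits of succinyl-CoA synthetase also differed in transcript make-up between overexpression and control. Sucla2-203 made up 33.4% ± 1.25 in the EGCG libraries, 46.7% ± 3.43 with overexpression alone and 26.3% ± 4.2 in control (SD, n = 3 each). In Suclg1 the principal Suclg1-201 was at 12.3, 13.7 and 12.4 TPM in the EGCG libraries, 17.6, 15 and 17.1 TPM with overexpression alone and 11.7, 12.2 and 11.9 TPM in control, higher in each overexpression library than in any control or EGCG library. The short Suclg1-206, of 534 bases, was listed at 0 TPM in the 3 overexpression libraries, at 0.60 to 1.48 TPM in the EGCG libraries and at 1.8 to 5.68 TPM in control. With principal transcripts alone Suclg1 therefore passed as higher with overexpression than in control (0.441, limma adjusted p = 0.00023), unlike its gene sum. In Suclg2, Suclg2-201 made up 71.6% ± 6.44 in the EGCG libraries, 72.8% ± 8.2 with overexpression alone and 50.1% ± 10.5 in control (SD, n = 3 each), and the 385-base Suclg2-205 was at 10.4, 2.33 and 0 TPM in control. Suclg2-201, a coding transcript of 2518 bases not marked as principal, was at 11.4, 12.1 and 12.8 TPM with overexpression alone. In control it was at 10.8, 9.51 and 10.4 TPM. The principal Suclg2-204 averaged 3.23 ± 0.603 TPM with overexpression alone and 4.92 ± 0.871 TPM in control (SD, n = 3 each).

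**Figure D5:**
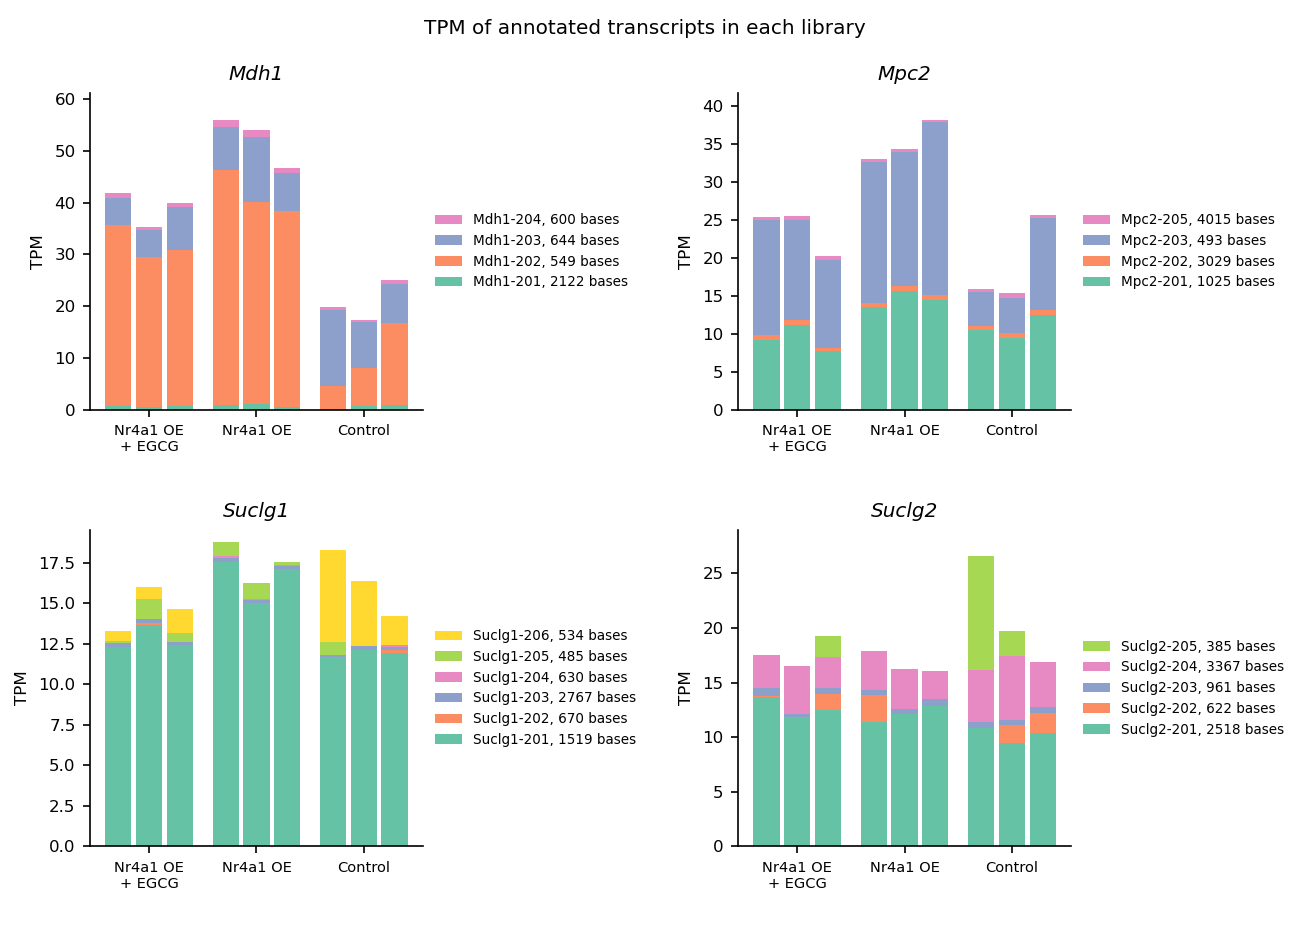
TPM of each annotated transcript of 4 genes, stacked per library, with EGCG on the left, overexpression alone in the middle and control on the right. In Mdh1 the 549-base model (orange) fills most of the EGCG and overexpression bars and less of the control bars, and Suclg1-206 (yellow) is missing from the overexpression bars.

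Set against control, the EGCG libraries differed in 7 of the 32 genes, a share near the 18.2% of all tested genes that passed. Mdh1 and Pc passed as higher in every setting that left out a single library, with log2 fold changes of 0.90 ± 0.127 (SE) and 0.30 ± 0.0429 (SE) as fitted. Fh1 was higher by 0.31 ± 0.0676 (SE) (limma adjusted p = 0.0182), a call lost without control replicate 2 (0.289), EGCG replicate 1 (0.313) or EGCG replicate 2 (0.272). Idh3g was higher by 0.23 ± 0.0554 (SE) (limma adjusted p = 0.0237), a call lost without control replicate 1 (0.226), control replicate 2 (0.200) or EGCG replicate 1 (0.201). Cs was higher by 0.22 ± 0.0508 (SE) (limma adjusted p = 0.0212), a call lost without control replicate 1 (0.200) or 2 (0.214) or EGCG replicate 1 (0.237) or 2 (0.189).

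On the low side, Sucla2 was below control in the EGCG libraries by a log2 fold change of -0.27 ± 0.057 (SE) (limma adjusted p = 0.0165), which did not pass without EGCG replicate 1 (-0.253). Slc25a1 was at -0.29 ± 0.0824 (SE) (limma adjusted p = 0.0422). Leaving out any of the 3 control libraries, any of the 3 EGCG libraries or overexpression replicate 3 ended that call, with values between -0.333 and -0.251. The number of genes higher with EGCG than in control was 2 without control replicate 2 or EGCG replicate 1, 3 without control replicate 1 or EGCG replicate 2, and 8 without control replicate 3, beside 5 with all libraries. The number over all 11950 tested genes moved as well. It was 628 without control replicate 2, 462 without EGCG replicate 1, 611 without control replicate 1 and 717 without EGCG replicate 2. Without control replicate 3 it was 1727, beside 1323 with all libraries.

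Other genes of these routes, a further 38 gene records of which 30 were tested, showed no common direction. With overexpression against control 9 rose, 11 fell and 10 did not pass, with a median log2 fold change of -0.02. Over all tested genes 59.5% passed, 38.2% higher and 21.3% lower, with a median of 0.10. For EGCG against overexpression 9 rose, 8 fell and 13 did not pass, with a median of 0.01. Over all tested genes 53% passed there, 18.8% higher and 34.1% lower, with a median of -0.09. Pdk1, a kinase that switches pyruvate dehydrogenase off, was at 56.6, 54.5 and 55 TPM in the EGCG libraries, 6.07, 5.94 and 3.93 TPM with overexpression alone and 56.5, 61.4 and 60.0 TPM in control. The overexpression libraries were far below the rest, by 3.27 ± 0.122 (SE) on the log2 scale against control (limma adjusted p = 2.38e-07), and EGCG stood above overexpression by 3.18 ± 0.122 (SE) (limma adjusted p = 2.95e-07). Pdk3, a kinase of the same family, was at 14.8, 15.4 and 14.6 TPM in the EGCG libraries, 10.5, 11.1 and 10.4 TPM with overexpression alone and 15.5, 16.1 and 15.3 TPM in control, again lowest with overexpression. Both kinases thus moved opposite to Dld and Pdhb, while the catalytic alpha subunit Pdha1, looked at after values were seen, was at 23.5, 22.9 and 24.8 TPM in the EGCG libraries, 21.7, 20.8 and 19.6 TPM with overexpression alone and 24.1, 23.7 and 21.9 TPM in control.

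Me1, the cytosolic malic enzyme that makes NADPH, was at 26.3, 24.9 and 26.3 TPM in the EGCG libraries, 17.2, 15.3 and 14.4 TPM with overexpression alone and 29.6, 29.5 and 27.7 TPM in control. Its overexpression libraries were the lowest 3, as for its mitochondrial relative Me2, with -0.85 ± 0.0674 (SE) against control (limma adjusted p = 1.06e-05) and 0.69 ± 0.0674 (SE) for EGCG against overexpression (limma adjusted p = 4.74e-05). Gls2, a glutaminase that releases glutamate, was at 15.1, 13.6 and 17.8 TPM in the EGCG libraries, 5.69, 4.87 and 5.42 TPM with overexpression alone and 13.6, 12 and 12 TPM in control. It moved opposite to Glul, with -1.10 ± 0.0979 (SE) for overexpression against control (limma adjusted p = 2.02e-05) and 1.37 ± 0.0979 (SE) for EGCG against overexpression (limma adjusted p = 8.94e-06).

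Gpd1, the cytosolic enzyme of the glycerol phosphate shuttle, was at 3.83, 4.46 and 4.22 TPM in the EGCG libraries, 7.23, 7.08 and 6.77 TPM with overexpression alone and 3.06, 3.39 and 3.32 TPM in control. The overexpression libraries were the highest 3, with 0.92 ± 0.0632 (SE) against control (limma adjusted p = 4.95e-06) and -0.64 ± 0.0632 (SE) for EGCG against overexpression (limma adjusted p = 5.27e-05). Aco1, the cytosolic aconitase, was at 10.6, 10.5 and 10.5 TPM in the EGCG libraries, 14.3, 13 and 13.1 TPM with overexpression alone and 9.01, 9.35 and 8.93 TPM in control, likewise highest with overexpression.

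The subunits of succinate dehydrogenase, an enzyme of the cycle, were also looked at after values were seen. With overexpression against control Sdhb rose by 0.52 ± 0.0636 (SE) (limma adjusted p = 0.000123), Sdhc by 0.48 ± 0.114 (SE) (limma adjusted p = 0.00543) and Sdhd by 0.68 ± 0.0867 (SE) (limma adjusted p = 0.000163). Sdha, the flavoprotein subunit, was at 44.7, 47.5 and 53.5 TPM in the EGCG libraries, 42, 41.6 and 41.9 TPM with overexpression alone and 69.2, 61.1 and 52.4 TPM in control. It fell with overexpression against control by 0.52 ± 0.0986 (SE) (limma adjusted p = 0.00159), opposite to the other subunits of its complex, and did not pass for EGCG against overexpression (0.21 ± 0.0986 (SE), limma adjusted p = 0.106). Mpc1, the partner of Mpc2 in the pyruvate carrier, was at 105, 108 and 108 TPM in the EGCG libraries, 115, 115 and 108 TPM with overexpression alone and 117, 121 and 119 TPM in control, and passed in none of the 3 comparisons.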

How the data were processed

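The authors deposited TPM per Ensembl transcript for each library. Per the submitters' processing notes they used bcl2fastq 2.20, FastQC 0.11.9, cutadapt 2.8, STAR 2.7.1a, RSEM 1.2.31 and the GRCm39 build. Per the labels' protocols libraries came from a stranded total RNA kit, and all carry the label batch 1. The annotation release and strand setting were not given in the sources used here, and TPM keeps no depth, so no counting intervals are given.

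Identifiers were joined to genes with GENCODE M21, whose build is older, so that only its names, gene membership and biotypes were used. Of 142435 identifiers 138346 (97.13%) matched. The 4089 others held 18.0% to 20.6% of the TPM of a library, so gene sums lack transcripts of later releases. The TPM of a gene's transcripts was added up. Genes that reached 1 TPM in 3 or more libraries entered a two-sided limma test (3.58.1, R 4.3.3, eBayes with trend) on log2(TPM + 1) over all 9 libraries, with Benjamini-Hochberg adjustment at 0.05. The fit was also run on simulated data with independent noise and few changed genes. That setting cannot show how the calls here depend on scaling. Errors of TPM are SD and those of fold changes are limma's SE. Ratios used exact permutation tests in scipy 1.17.1, with pandas 2.3.3 and matplotlib 3.10.9 in Python 3.11.15.

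Sample titles gave the groups and replicate numbers. The genes, lists, tests and naming rule were chosen with earlier results of these data known. Named with values are, per function, up to 5 genes with the smallest adjusted p for overexpression against control, genes never called (by range), up to 6 other pathway genes, and transcripts whose share differs by at least 20 percentage points between groups that do not overlap, in genes of at least 5 TPM. Pc, Ogdh, Dlst, Idh3b, Sucla2, Pdha1, the Sdh genes, Mpc1, Gcg and the transcripts of Idh3a, Pck2, Slc25a12 and Suclg2-204, Suclg2-205, Mdh1-201, Mpc2-201 were named after their values were seen. Alternatives covered the pseudocount, filters, scalings, samples in the fit, the variance trend, a replicate block, transcript biotypes and leaving out each library. APPRIS principal transcripts were added after the data were seen.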

Additional observations from a re-analysis of the deposited data

How the results depend on the processing

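Depth could not be read from TPM, so low values carry an unknown error. The part that untransfected control cells, unmatched transcripts and transcript models play was not tested beyond the alternatives here. Of the values for single genes, the called ones that turned sign were Pck2 for overexpression against control and Slc25a12 for EGCG against overexpression, and where nothing else is said the cause of a change was not tested.

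Members lower for overexpression against control were 3 as fitted, 6 after median-ratio scaling and 5 after quantile normalization. Over all tested genes 21.3%, 29.7% and 28.4% were lower in these settings. Members lower for EGCG against overexpression were 20 as fitted and 13 with quantile normalization, where 34.1% and 25.9% of all tested genes were lower. Members higher for EGCG against control were 5 as fitted, 10 with nuclear protein-coding genes alone (where 21.4% of all tested genes were higher, beside 11.1% as fitted) and 3 with only the 6 libraries of the comparison (where 543 of 11950 were higher). Members lower for EGCG against control were 2 as fitted, 1 with no filter, 1 with only those 6 libraries, 4 with protein-coding transcripts and 6 with principal transcripts. Leaving out each library gave 20 to 22 higher and 3 to 4 lower for overexpression against control, 4 to 5 higher and 18 to 23 lower for EGCG against overexpression, and 2 to 8 higher and 0 to 2 lower for EGCG against control. Over all 11950 tested genes 4009 to 4572 were higher and 2129 to 2788 lower for overexpression against control. For EGCG against overexpression 1872 to 2404 were higher and 3437 to 4383 lower. For EGCG against control 462 to 1727 were higher and 273 to 1512 lower. The pseudocounts of 0.1 and 5, the filter of 5 TPM and the fit without a variance trend moved none of these counts by over 1.5 times.

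With the replicate number as a block, members higher for EGCG against control were 3 and members lower were 1, beside 6.15% and 4.07% of all tested genes. The block moved no other of these counts by over 1.5 times. The labels give the numbers no shared source, and they were not taken as pairs. Correlations of deviations between libraries of the same number ran from -0.021 to 0.214 in 9 pairs, 7 of them positive and 3 over 0.1. The partner of the same number was the best match, among the 3 libraries of the other group, in 11 of 18 comparisons of a library with another group. Whether libraries of the same number share a source was not tested.

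For overexpression against control the sign turned for Suclg1 (-0.007 with median-ratio scaling, -0.045 with quantile normalization), Got2 (-0.061 with quantile normalization), Pck2 (-0.174 with principal transcripts) and Slc25a22 (0.085 with principal transcripts). Pc turned to -0.100 with median-ratio scaling, -0.127 with quantile normalization, -0.072 with nuclear genes, -0.007 with protein-coding transcripts and -0.087 with principal transcripts. Leaving out single libraries gave -0.003 to 0.021 for Pc and -0.347 to 0.047 for Slc25a22.

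For EGCG against overexpression it turned for Got2 (0.065 with median-ratio scaling, 0.168 with quantile normalization, 0.114 with nuclear genes), Slc25a12 (0.003 with quantile normalization) and Slc25a22 (0.018 with nuclear genes).

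For EGCG against control it turned, with protein-coding and with principal transcripts alike, for Dlat (-0.193), Glud1 (-0.090), Slc25a12 (-0.135) and Mpc2 (-0.194). Idh3a gave -0.102 with protein-coding and -1.724 with principal transcripts. Principal transcripts also turned Ogdh (-0.052), Suclg1 (0.094), Pck2 (-0.531), Slc25a22 (0.077) and Pdp1 (-0.062). Pdp1 gave -0.001 after median-ratio scaling and -0.013 after quantile normalization, and Pdhx 0.007 with nuclear genes. Leaving out single libraries gave -0.020 to 0.046 for Pdp1, -0.069 to 0.138 for Pck2, -0.018 to 0.123 for Idh1 and -0.021 to 0.145 for Slc25a11.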
